A study of Mus musculus with 504 samples.

Results

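Plet1 and its overlapping antisense gene Plet1os were followed through all sorted populations of mouse mammary tumours. They are 2 of the 55450 gene identifiers of the count table and were taken by name (ENSMUSG00000032068 and ENSMUSG00000101304), in every library that the submitters marked as having passed quality control. The pair was chosen because earlier results of these data had shown high counts in EpCAM-high tumour cells and none in the EpCAM-negative GFP+ population. Levels against those populations are therefore mostly given as a description, with no test. Exceptions are a tested step that starts from an EpCAM-high gate and a test of EpCAM-high cells between the mouse lines. The levels used in these tests took part in the choice.

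The study sorted tumour cells by fluorescence from mice in which cells that enter an epithelial-mesenchymal transition (EMT) change colour permanently. All mice carried MMTV-PyMT, which drives mammary tumours, MMTV-Flpo, a recombinase that switches on mCherry in the mammary epithelium, and the RC::FrePe reporter, which goes from mCherry to GFP after Cre recombination. The lines differed in the tamoxifen-dependent Cre: Tnc-CreERT2 in one line and Cdh2-CreERT2 in the other, each under the control of the gene it is named after, so that GFP reports past activity of that gene rather than a cell state. Every mouse received 2 mg of tamoxifen 2 times per week from 9 weeks of age until 13 to 14 weeks, and no untreated mice or mice without the oncogene were analysed here. Sorted cells were collected as pools of 5 cells and made into Smart-seq2 libraries, so that fewer Plet1-expressing cells in a pool and less Plet1 RNA per cell cannot be told apart.

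Populations are named as in the labels. Gates of mCherry+ cells without GFP included P18, sorted for the strongest mCherry and high EpCAM, P17, with high EpCAM, and P05, without EpCAM. P22 held both colours at high EpCAM. Among GFP+ cells, P09 took the brightest at medium EpCAM, P16 others at medium EpCAM, P10 those with low EpCAM and P15 those without it. The series text prints the name P18 for the gate called P09 in the sample labels, so the definition of P09 is the least certain. The Tnc line gave all 8 populations from 5 mice (TENA2462, TENA2483, TENA2517, TENA2524 and TENA2560). The Cdh2 line gave P18, P05 and P15 from 5 mice (Cdh1624, Cdh1654, Cdh1725, Cdh1739 and Cdh1803), with P05 from Cdh1725 alone.

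Plet1, placenta-expressed transcript 1, encodes a glycoprotein held in the outer leaflet of the plasma membrane by a glycosylphosphatidylinositol (GPI) anchor. It is known as a surface marker of progenitor cells in several epithelia, among them thymus, hair follicle and mammary gland, and of early trophoblast. Plet1os is annotated as an antisense gene: its transcript is made from the opposite strand and is not known to encode a protein.

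On GRCm38 (mm10), with GENCODE M21 models, Plet1 lies on the plus strand of chromosome 9, from 50494525 to 50505482, with 1947 exon bases. Plet1os lies on the minus strand from 50488795 to 50507823, with 1245 exon bases, and so spans the whole of Plet1. Exons of the genes share 261 bases, which is 13.4% of the exon bases of Plet1 and 21.0% of those of Plet1os. The shared bases form 2 blocks, of 76 bases at the second exon of Plet1 and of 185 bases within its last exon. Smart-seq2 reads do not keep the strand, and whether the authors' counting used strand is not given in the sources used here. Reads that lie wholly on the shared bases therefore cannot be assigned to either gene from these counts. The other 1686 exon bases of Plet1 and 984 of Plet1os belong to a single gene in the annotation. Counts of Plet1os are reads on its exons, and whether their RNA was antisense was not tested.

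**Figure D1:**
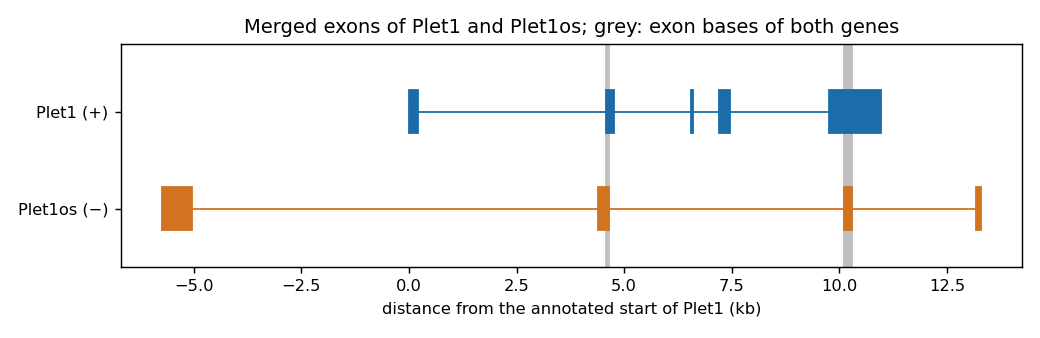
Merged GENCODE exons of Plet1 (plus strand) and Plet1os (minus strand), drawn to scale as distance in kb from the annotated start of Plet1; boxes are exons, lines introns, and grey bands the exon bases that belong to both genes. The 2 grey bands cover 261 bases, and most exon bases of either gene lie outside them.

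The smaller shared block is shown because a read that lies wholly within it is compatible with both genes. It is part of the second Plet1 exon, at chr9:50499095-50499170 on GRCm38, printed on the plus strand in lower case throughout:
Plet1 exon shared with Plet1os: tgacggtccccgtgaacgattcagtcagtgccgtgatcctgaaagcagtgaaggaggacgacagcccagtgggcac

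The 250 bases before the start of Plet1 are shown because the level of the gene is what varied between the populations. The sequence is RefSeq's on GRCm38.p6, plus strand, chr9:50494275-50494524. A promoter window was found for both genes. That of Plet1os, chr9:50504756-50505055 on the minus strand, lies within the GENCODE span of Plet1os, not before its annotated start at 50507823. It also lies inside the last exon of Plet1 and is not shown. Capitals mark the match to TATAAA, the core of a TATA box, and the match to ATTTGCAT, the octamer motif:
Plet1 upstream window: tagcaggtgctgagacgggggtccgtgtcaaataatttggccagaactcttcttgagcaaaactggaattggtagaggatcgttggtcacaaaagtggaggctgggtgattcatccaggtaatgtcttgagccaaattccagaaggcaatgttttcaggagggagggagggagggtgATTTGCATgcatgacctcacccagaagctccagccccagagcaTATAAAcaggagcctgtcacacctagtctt

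TATAAA starts 30 bases and ATTTGCAT 73 bases before the first base of the gene, and they do not overlap. Searched on both strands, 12.4% of the 32851 upstream windows of the same length held TATAAA and 1.60% held ATTTGCAT. Both motifs were chosen after this sequence had been seen, and a match describes the letters only.

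Of 487 wells with cells, 335 libraries passed quality control, with 313655 to 27849014 counts each, and were summed into 43 totals of an animal and a population, 2 of which rest on a single library (P16 of TENA2483 and P15 of TENA2524). The labelled cells were checked against marker genes. The 8 epithelial markers (Epcam, Krt8, Krt18, Krt19, Cldn3, Cldn4, Cldn7 and Cdh1) summed to 9465 to 22486 CPM (counts scaled to 1000000 per sum) in the animals of Tnc P18 and to 29.4 to 231 CPM in Tnc P15, where Cldn4, Cldn7 and Cdh1 were at 0. Tnc P15 went against its label of tumour cells: all 10 leukocyte markers were detected and summed to 3085 to 8963 CPM. Ptprc, the common leukocyte antigen CD45, reached 10 CPM in 12 of 12 pools. Tnc RNA was at 0 in 2 of 3 animals of P15, but also in P16 of TENA2483 and P10 of TENA2517. In Tnc P05 the leukocyte list summed to 199 to 10124 CPM and the list of 8 fibroblast markers to 85.7 to 17365 CPM. In Cdh2 P15 Ptprc was at 0 in all 3 animals, the leukocyte list summed to 1.04 to 20.9 CPM, and Cdh2, the gene behind the Cre, stood at 12.2, 32.9 and 29.9 CPM against 0 to 0.63 CPM in Cdh2 P18.

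Plet1 was among the most abundant transcripts of the epithelial tumour cells. In Tnc P18, per animal, Plet1 stood at 5366, 7439, 6151, 4816 and 7806 CPM (TENA2462, TENA2483, TENA2517, TENA2524 and TENA2560), a mean of 6316 ± 1291 (SD, n = 5 mice); all CPM per animal are scaled by the trimmed mean of M-values (TMM). The 5 mice lay within a factor of 2 of each other. Per kb of exon, Plet1 ranked 16th of 29849 detected genes and 4th of the protein-coding genes, at a level of 3244 CPM per kb.

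Plet1os followed at a lower level. In Tnc P18 it had 1900, 2635, 2302, 1837 and 2748 CPM in the same order of mice, a mean of 2285 ± 414 (SD, n = 5), and TENA2560 was the highest and TENA2524 the lowest for both genes. Per kb of exon the level of Plet1os was 1835 CPM per kb, so that Plet1 was 1.77 times as high, or 1.61 times when the CPM were divided by the unshared exon length alone. By reads on its exons, whose strand is not known, Plet1os ranked first of 1770 detected antisense genes per kb.

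The other EpCAM-high populations of the Tnc line held Plet1 in every pool. P22 cells, which carried both colours, had 3731, 4710, 4411, 3971 and 3985 CPM (same order of mice; 4162 ± 392, SD, n = 5). P22 was lower than P18 in 5 of 5 mice under each of the scalings tried, by 1.21 to 1.96 times with TMM, 1.10 to 1.82 times with raw totals and 1.12 to 1.65 times with RLE factors (size factors from relative log expression). The groups did not overlap with TMM, but they did with raw totals and with RLE factors. P17 cells had 2921, 1735 and 7854 CPM in TENA2517, TENA2524 and TENA2560 (4170 ± 3245, SD, n = 3) and ranged across the levels of both; P17 was lower than P18 in 2 of 3 mice.

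Of the GFP+ EpCAM-medium gates, P09 had Plet1 at a level close to that of P22 and P16 at a lower mean with a wide spread between mice. P09 had 4480, 3668, 4546, 3062 and 2522 CPM (3656 ± 882, SD, n = 5), below P18 of the same mouse in 5 of 5 by 1.20 to 3.09 times, or in 4 of 5 with RLE factors. P16 had 3734, 1365, 905 and 1135 CPM in TENA2462, TENA2483, TENA2517 and TENA2524 (1785 ± 1313, SD, n = 4), below P18 in 4 of 4 by 1.44 to 6.80 times. A single mouse, TENA2462, set the upper end of P16, and the other 3 mice lay below every P09 animal.

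In the EpCAM-low GFP+ gate the mice differed more. In P10 Plet1 had 3471, 1057, 16.5 and 2492 CPM in TENA2462, TENA2483, TENA2517 and TENA2524 (1759 ± 1527, SD, n = 4), so that 3 mice were within the range of P16 and TENA2517 was lower by orders of magnitude. P10 was below P18 in 4 of 4 mice, by 1.55 to 374 times, or in 3 of 4 with RLE factors. P10 of TENA2517 also carried Ptprc at 213 CPM and Epcam at 38.0 CPM, against Ptprc at 0.06, 25.3 and 0.03 CPM and Epcam at 3915, 648 and 1706 CPM in the other 3 mice; the part of other cells in its Plet1 level was not tested. Over the 4 mice of P10 the leukocyte list summed to 6.60 to 6468 CPM and the epithelial list to 66.7 to 19411 CPM, with no member of either list at 0 throughout.

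In the EpCAM-negative mCherry+ gate, P05, Plet1 was low and uneven between mice. The mice had 42.3, 20.0, 268, 300 and 4.91 CPM (TENA2462, TENA2483, TENA2517, TENA2524 and TENA2560; 127 ± 144, SD, n = 5), all below every P18 animal and 16.0 to 1589 times below P18 of the same mouse (8.86 to 1062 times with RLE factors). They overlapped P10 only through P10 of TENA2517. In the same order of mice the fibroblast gene Col1a1 had 4014, 2888, 11.2, 716 and 3531 CPM and Ptprc 0.147, 107, 112, 205 and 0 CPM. Single pools set these levels: in TENA2517, 2802 of 2826 Plet1 counts came from 1 of 3 pools, in which Ptprc and Col1a1 were at 0, and in TENA2483 all 519 came from 1 of 10. Without its highest pool TENA2517 had 4.25 CPM of raw totals, against 305 CPM with it, and the mean over the 5 mice without the highest pool of each was 32.4 CPM, a setting chosen after seeing the data. The part of other cells in these levels was not tested.

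In the EpCAM-negative GFP+ gate of the Tnc line, P15, neither gene had a count in any of 12 pools from 3 mice. A total of 0 of 45182788 counts allows up to 0.0664 CPM (3 counts over the group, counting error only). Against the pooled P18 level of 6072 CPM for Plet1 and 2196 CPM for Plet1os, this put P15 at least 91450-fold lower for Plet1 and at least 33077-fold lower for Plet1os. These are bounds on reads and not on RNA molecules, since the libraries carried no molecular identifiers. They pool the 3 mice and do not hold for each. By mouse, 3 counts amount to 0.105, 0.187 and 5.90 CPM in TENA2483, TENA2517 and TENA2524. The bound is therefore far weaker for TENA2524, with 1 library. The 11 P15 pools that failed quality control were also at 0, over 1535666 counts. Since these pools carried leukocyte markers at the levels given above and Krt8 at 0 in 2 of 3 mice, a loss within tumour cells and a gate filled by other cells cannot be told apart.

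**Figure D2:**
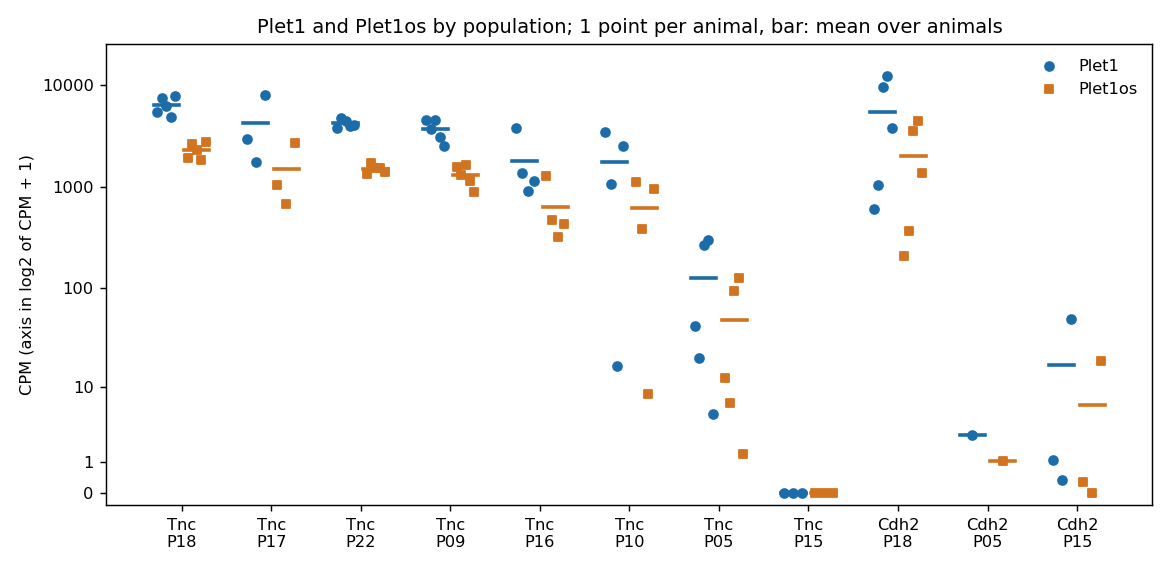
Plet1 (blue circles) and Plet1os (orange squares) in CPM on an axis of log2(CPM + 1), by line and population; each point is the sum of the passed pools of an animal and each bar the mean over animals. The genes run in parallel, P18 and P22 points lie above 1000 CPM in the Tnc line, P10 and P05 spread widely, and all Tnc P15 points are at 0.

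P18 of the Cdh2 line also held Plet1 in every pool, with a wide spread between mice. In P18 Plet1 stood at 605, 1044, 9508, 12076 and 3773 CPM (Cdh1624, Cdh1654, Cdh1725, Cdh1739 and Cdh1803; 5401 ± 5149, SD, n = 5). Of these, Cdh1624, Cdh1654 and Cdh1803 were below, and Cdh1725 and Cdh1739 above, every P18 animal of the Tnc line with TMM and with RLE factors. With raw totals Cdh1803 (4558 CPM) and Cdh1725 (7828 CPM) lay within the Tnc range of 3879 to 9150 CPM. Plet1os had 209, 366, 3523, 4451 and 1366 CPM in the same mice, in the same order of levels. Cdh1624 rests on 2 pools, and its TMM factor puts it below the 1356 and 1627 CPM of those pools computed from their own totals.

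Epithelial markers followed these differences in part. Epcam was at 270, 1663, 4761, 5077 and 1313 CPM and Krt8 at 384, 2549, 6373, 6051 and 1557 CPM in the same order of mice. Ptprc was at or below 0.26 CPM in all 5. Plet1 amounted to 224, 62.7, 200, 238 and 287 CPM per 100 CPM of Epcam, so Cdh1654 was low also relative to Epcam, and the other 4 mice were not. Cdh1803 had more Plet1 than Cdh1654 with less Epcam and Krt8.

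The P18 cells of the lines did not differ beyond the spread between mice. In edgeR's quasi-likelihood test over 10 P18 sums and 17878 genes, Plet1 had a log2 fold change, Cdh2 over Tnc, of -0.32 ± 0.66 (SE; adjusted p = 1.00) and Plet1os one of -0.30 ± 0.67 (adjusted p = 1.00). edgeR called no gene (0% of those tested; 430 had an unadjusted p below 0.05), and DESeq2 called 3, with an adjusted p of 1.00 for Plet1. All Cdh2 libraries and those of TENA2524 were run in lane 2 and the other Tnc mice in lane 1, so line and lane can be compared only through TENA2524.

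The EpCAM-negative populations of the Cdh2 line held little Plet1. P15 had 1.09, 0.331 and 49.7 CPM in Cdh1624, Cdh1654 and Cdh1739, at 79, 3 and 4122 counts, below P18 of the same mouse in 3 of 3 and with no overlap with P18. Cdh1624 was 554 times lower with TMM, 1254 times with raw totals and 1186 times with RLE factors, Cdh1739 was 243, 196 and 193 times lower, and the 3 counts of Cdh1654 are too few for a ratio. All 4122 counts of Cdh1739 came from a single pool at 439 CPM, and its other 5 pools had 0 of 64728953 counts. Unlike in Tnc P15, Ptprc and 5 other leukocyte markers (Laptm5, Tyrobp, Lsp1, Itgam and Cd52) were at 0 in this population. Its 6 basal and myoepithelial markers summed to 573 to 763 CPM, against 21.3 to 210 CPM in Cdh2 P18, but not as a group: Krt14 and Krt17 were at 0, the median fitted log2 fold change was -1.05, and edgeR called 0 (2 lower and 1 higher at an unadjusted p below 0.05). Its 8 fibroblast markers summed to 26.9 to 90.9 CPM, against 0.0581 to 13.5 CPM, but also not as a group. Their median fitted log2 fold change was 0.50, with 3 of 8 negative. edgeR called 0 of them (1 higher at an unadjusted p below 0.05, against 3.6% of all genes). The part of other cells in the low Plet1 was not tested. P05 of Cdh1725 had 2.69 CPM over 10 pools, from 145 counts, with fibroblast markers at 5736 CPM and leukocyte markers at 2045 CPM; it is a single animal, without replicates.

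Ordered by the mean over mice, Plet1 in the Tnc line went P18, P17, P22, P09, P16, P10, P05, P15. Neighbours in this order overlapped in their ranges over mice for both genes, except P05 and P15. The place of P17 rests on TENA2560: without that mouse its mean was 2328 CPM, below P09 (3939 CPM). With all libraries, failed ones included, P17 had 3787 CPM, below P22 (4415 CPM) and P09 (3892 CPM). P16 and P10 changed places with RLE factors (1924 and 1957 CPM, against 1785 and 1759 with TMM) and without TENA2462, TENA2483 or TENA2517. In the Cdh2 line the order was P18, P15, P05, with an overlap between the latter 2. The place of P15 rests on Cdh1739: without that mouse its mean was 0.711 CPM, below P05 (2.69 CPM), against 17.0 CPM with it.

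Successive steps along the GFP+ gates were tested. The genes had been chosen for their level in EpCAM-high cells against the EpCAM-negative GFP+ population; the steps are other contrasts, but P22 is an EpCAM-high gate, so its level was not independent of the choice, and the same holds for P18 in the comparison of the lines. With edgeR on all 43 sums and the animal as a block, Plet1 had a log2 fold change of -0.22 ± 0.82 from P22 to P09 (SE; lower in 3 of 5 mice), -1.16 ± 0.91 from P09 to P16 (lower in 4 of 4 mice) and -0.06 ± 0.93 from P16 to P10 (lower in 3 of 4 mice), each with an adjusted p of 1. Plet1os had -0.23 ± 0.86, -1.17 ± 0.96 and -0.09 ± 0.97, also with an adjusted p of 1 in each. None of the 33768 genes tested was called by edgeR in any of these steps (0%), while 776, 1683 and 1610 genes had an unadjusted p below 0.05. DESeq2 called 956, 1549 and 2084 genes in the 3 steps, but neither Plet1 nor Plet1os (adjusted p = 1 in each). With only the 2 populations of a step in the fit, Plet1 had -0.21 ± 0.147, -1.27 ± 0.345 and -0.79 ± 1.24 (SE; edgeR adjusted p = 0.679, 0.998 and 1.00). From P16 to P10 the Plet1 difference was -0.67 with failed libraries included, and its sign turned without TENA2483 (0.043) and without TENA2517 (0.071).

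Detection was counted in single pools that passed quality control. At 10 CPM or more, here from each library's own total, Plet1 was detected in 55 of 55 pools of Tnc P18, 11 of 11 of P17, 50 of 50 of P22, 48 of 48 of P09, 25 of 26 of P16 and 18 of 25 of P10. In P05 it was detected in 9 of 32 pools and 19 pools were at 0, and in P15 in 0 of 12. In the Cdh2 line the counts were 50 of 50 in P18, 1 of 10 in P05 and 1 of 16 in P15. With any count of Plet1 there were 20 of 25 pools in Tnc P10, 13 of 32 in Tnc P05, 2 of 10 in Cdh2 P05 and 6 of 16 in Cdh2 P15, and the same numbers as at 10 CPM in the other populations. Among pools that failed quality control, Plet1 reached 10 CPM in 7 of 20 in Tnc P16 and 3 of 14 in Tnc P10. There, 12 and 11 of the failed pools were at 0.

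The pools of P18, P22 and P09 lay well above 0. In Tnc P18 the lowest, median and highest pool had 1602, 5385 and 15257 CPM, in P22 638, 4000 and 9650 CPM, and in P09 593, 4032 and 8468 CPM. P17, with 11 pools, was wider, at 57.7, 2765 and 13953 CPM. The median pool of P09 was therefore as high as that of P22, although the mean over mice was lower.

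The spread was split into that between pools of a mouse and that between mice. On the log2(CPM + 1) scale, pools of the same mouse had an SD of 0.63 in Tnc P18 and 0.55 in Cdh2 P18, while the means of the mice had SDs of 0.45 and 1.38. In Cdh2 P18 the mice therefore stood further apart than their own pools did: the 12 pools of Cdh1654 had 692 to 1802 CPM, all below the 4831 CPM of the lowest pool of Cdh1725. In P16 and P10 the pools of the same mouse had SDs of 2.42 and 3.91 and the means of the mice SDs of 1.34 and 3.85; in P22 and P09 the pools had 0.75 in both and the means 0.19 and 0.47. The P16 values rest on a single pool at 0, from TENA2517: without it, a setting chosen after seeing the data, they were 1.59 and 0.78.

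**Figure D3:**
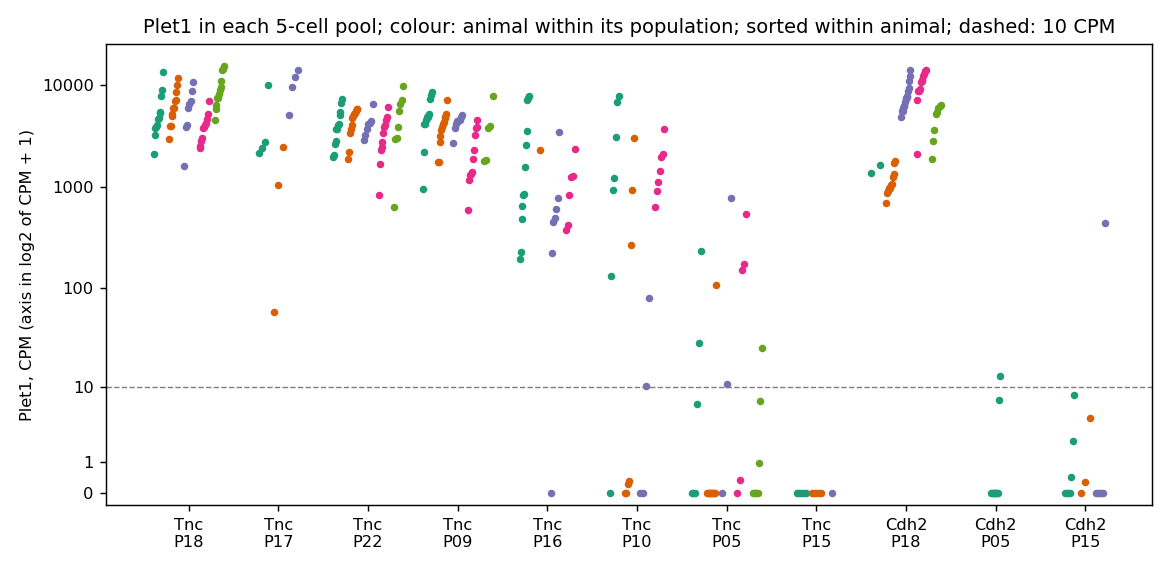
Plet1 in each passed 5-cell pool, in CPM of the library's own total on an axis of log2(CPM + 1), by line and population; pools are grouped by animal (colour, within a population) and sorted by level, and the dashed line marks 10 CPM. All pools of Tnc P18, P17, P22 and P09 lie above the line, pools of P10 and P05 lie on both sides, and the 12 Tnc P15 pools are at 0.

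In the pools of the low and negative EpCAM gates, Plet1 mostly occurred where Epcam RNA did. All 18 P10 pools with Plet1 at 10 CPM or more also had Epcam, and 16 had Krt8, a keratin of simple epithelia; 2 further pools had Epcam without Plet1. Over the 25 P10 pools Pearson's r between log2(CPM + 1) of Plet1 and Epcam was 0.87, a description of pools that share mice, lane and depth. Of 4 P10 pools with Ptprc, 1 had Plet1.

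P05 gave a similar picture at lower levels. Of its 9 pools with Plet1, 8 had Epcam, 6 had Krt8, 4 had the fibroblast collagen gene Col1a1 and 2 had Ptprc. The highest P05 pool, from TENA2517, had Plet1 at 775 CPM with Epcam at 2301 CPM, Krt8 at 679 CPM, and Ptprc and Col1a1 at 0. The next, from TENA2524, had Plet1 at 539 CPM with Epcam at 239 CPM and Col1a1 at 12.2 CPM. A pool of TENA2483 had Plet1 at 107 CPM together with Col1a1 at 5148 CPM and Epcam at 174 CPM. These pools carried epithelial RNA although their gate was EpCAM negative. For comparison, 1 of 17 wells without cells held Plet1, at 935 CPM from 240 counts. The source of the Plet1 reads in either was not tested.

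Epcam RNA without Plet1 was seen in both lines, in 3 pools of Tnc P05 and 1 of Cdh2 P05 as well. In Cdh2 P15, 9 of 16 pools had Epcam at 10 CPM or more and 8 of these were without Plet1 at that level, as were all 4 pools with Krt8 and all 4 with Cdh1, which encodes E-cadherin. The exception was the Cdh1739 pool at 439 CPM of Plet1, which had Epcam at 142 CPM and Cdh2 at 197 CPM, with Krt8, Cdh1, Vim and Ptprc at 0. In Tnc P15, 3 of 12 pools had Epcam and none had Plet1, Krt8 or Cdh1 at 10 CPM.

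**Figure D4:**
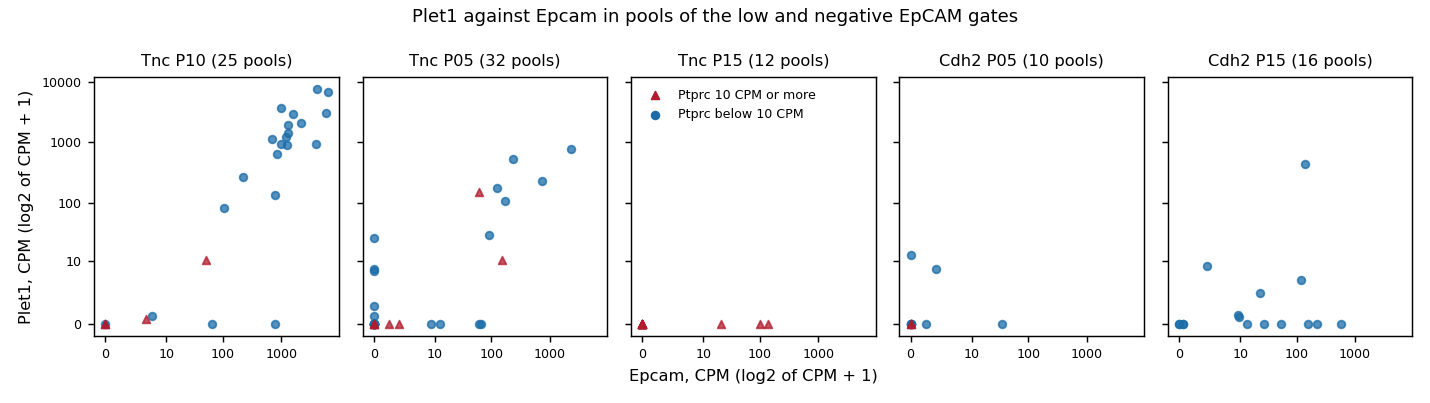
Plet1 against Epcam in each passed pool of the low and negative EpCAM gates, both in CPM on axes of log2(CPM + 1); red triangles are pools with Ptprc at 10 CPM or more, blue circles the others. Pools of Tnc P10 run along a rising band, Tnc P05 has 9 pools at 10 CPM of Plet1 or more, and in Cdh2 P15 a single pool, at 439 CPM, is above that level.

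Plet1os accounted for nearly the same share of the locus in every population with enough counts to tell. Of the counts of both genes together, Plet1os took 26.1%, 26.2%, 27.2%, 27.6% and 26.0% in the 5 mice of Tnc P18 and 25.7%, 26.0%, 27.0%, 26.9% and 26.6% in the 5 mice of Cdh2 P18. Over 38 sums with 100 or more locus counts the share ran from 22.1% to 33.9% with a median of 26.3%, and over the 33 sums with 1000 or more from 24.4% to 29.6%. The extremes were thinly covered: the 33.9% was P10 of TENA2517, with 127 Plet1 counts and a 95% Wilson interval of 27.5% to 40.8%. Intervals and floors here cover counting error only, since the libraries carried no molecular identifiers.

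Single pools showed the same coupling. Over 265 libraries with 100 or more locus counts the median share was 26.4%, and 25.0% and 28.0% were the 5th and 95th percentiles. Among the passed libraries Plet1os was not counted without Plet1: 267 had both genes, 13 had Plet1 alone, with at most 35 counts, 55 had neither and 0 had Plet1os alone. Among failed libraries 1, from P05 of TENA2462, had 27 counts of Plet1os and 0 of Plet1. Pearson's r between the genes on the log2(CPM + 1) scale was 0.994 over 335 libraries, which share mice, lanes and depth.

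The share had played no part in the choice of the genes and was tested over mice. Cdh2 P18 and Tnc P18 had 26.4% ± 0.59 and 26.6% ± 0.73 (SD, n = 5 each), a difference of -0.19 percentage points (exact two-sided permutation test, p = 0.651, adjusted over 6 comparisons 0.90; smallest possible p 0.00794). Within the Tnc line, P22, P09, P16, P10 and P17 differed from P18 of the same mice by -0.13, -0.40, -0.57, 1.35 and -0.29 points (exact sign-flip permutation tests, p = 0.938, 0.188, 0.125, 0.75 and 0.50; adjusted p 0.5625 to 0.938). With 5, 5, 4, 4 and 3 pairs the smallest possible p were 0.0625, 0.0625, 0.125, 0.125 and 0.25, so none of these could pass 0.05. The share was higher than in P18 in 3 of 5, 1 of 5, 0 of 4, 2 of 4 and 1 of 3 mice.

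TENA2524 stood apart in the share. It had the highest Plet1os share of its population in 6 of 7 Tnc populations, among them P18 (27.6%, against 26.0% to 27.2% in the other 4 mice), P22 (27.8%, against 25.8% to 26.6%) and P05 (29.6%, against 22.1% to 26.2%). It was also the only Tnc mouse in lane 2, so mouse and lane cannot be told apart. With lane 2 alone, P18 of the 5 Cdh2 mice lay 1.17 points below P18 of TENA2524 (difference -1.17, no test with a single Tnc mouse).

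**Figure D5:**
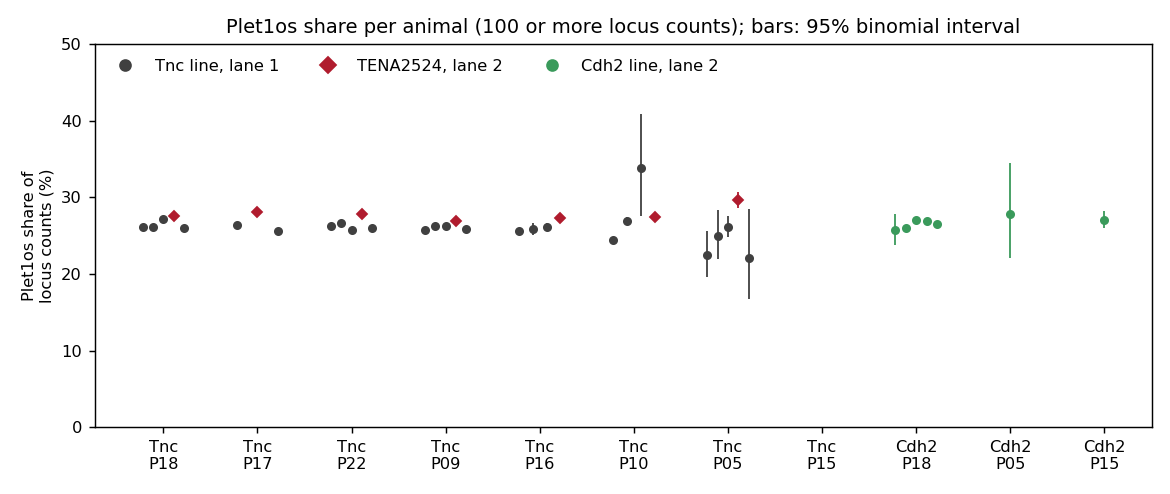
Share of Plet1os in the counts of Plet1 and Plet1os together, in percent, for each sum with 100 or more such counts, by line and population; bars are 95% Wilson binomial intervals and cover counting error only. Most points lie between 24.4% and 29.6%, the red diamonds of TENA2524 are the highest of their population in 6 of 7 cases, and Tnc P15 has no counts.

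The likeness of other genes to Plet1 was measured over the 43 sums, which include the populations for which the genes were chosen, and is a description. By Pearson's r of log2(CPM + 1) among genes that passed the filter, Plet1os came first (0.998), then Cldn7 (0.951), Epcam (0.948), Krt8-ps (0.945), Krt8 (0.936), Wfdc18 (0.921), Mal2 (0.913), Cldn4 (0.912), Gm36026 (0.910) and Ehf (0.907). Cldn7 and Cldn4 encode claudins of tight junctions, Epcam the adhesion molecule used in the sort, and Ehf an epithelial transcription factor of the ETS family. Krt8-ps is a processed pseudogene of Krt8, and the authors' counting could split reads between them. These sums share mice and populations, and include both EpCAM-positive and EpCAM-negative gates.

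Among P18 pools alone, all from an EpCAM-high gate, the likeness was weaker and involved other genes. After subtraction of each animal's mean, over 105 P18 pools of both lines and 7428 genes, Plet1os had r = 0.995, followed by Serpinb5 (0.667), which encodes the serpin maspin, S100a16 (0.642), a calcium-binding protein gene, Tm4sf1 (0.622), which encodes a tetraspanin-like surface protein, and Gm5620 (0.589). Epcam ranked 11th with 0.554, Krt8 had 0.315, Cldn7 0.210 and Wfdc18 -0.02. The pools share library preparation and depth, and no test was made.

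None of the genes around the locus was called, which says little for so few genes where so small a share of all genes was called. Within 250 kb on either side the annotation holds 15 genes besides Plet1 and Plet1os, 13 of them protein coding, and 14 passed the filter on low counts. In edgeR's test 0 of these were called in Tnc P10, P05 or P15 or in Cdh2 P15 against P18 of the same line, where 0.00296%, 0.545%, 0.729% and 0% of all genes were called; 0, 3, 5 and 1 of the 14 had an unadjusted p below 0.05, against 8.23%, 13.3%, 15.2% and 3.6% of all genes. Sdhd is a subunit gene of mitochondrial complex II whose nearer end lies 90875 bases beyond Plet1. It had 113 ± 14.7 CPM in Tnc P18 (SD, n = 5) and 94.1 ± 39.0 CPM in P15 (SD, n = 3). The nearest protein-coding gene, Pts, an enzyme of tetrahydrobiopterin synthesis 16135 bases away, had 21.7 CPM in P18 and 4.99 CPM in P15 (edgeR adjusted p = 0.626; 3 of 3 mice below every P18 mouse).

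Most neighbours had a negative fitted fold change in P15 against P18, 12 of the 14 tested, where 60.1% of all genes tested did. Timm8b, which encodes an import factor of the mitochondrial inner membrane, had 61.2 CPM in P18 and 20.0 CPM in P15 (edgeR adjusted p = 0.385; 3 of 3 mice below every P18 mouse). Dlat, a subunit gene of pyruvate dehydrogenase, had 16.9 and 28.5 CPM (adjusted p = 0.960; 3 of 3 mice above). Il18, which encodes a cytokine, had at most 0.871 CPM in P18 and at most 3.81 CPM in P15. Bco2 and Tex12 were below 0.1 CPM on average in P18. Like Plet1, Pih1d2, Dixdc1 and 2310030G06Rik were at 0 in all 3 P15 mice, but from far lower levels in P18, 3.11, 6.45 and 14.5 CPM (edgeR adjusted p = 0.305, 0.149 and 0.159). The remaining protein-coding neighbours, Rpl10-ps3, Nkapd1 and Hspb2, had 358, 17.0 and 1.12 CPM in P18 and 171, 4.00 and 0.578 CPM in P15.

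Genes that act with Plet1, or in the same cells, were counted from lists drawn up with earlier results of these data known. Of 26 genes of GPI anchor synthesis and transfer, which attach the anchor of Plet1, edgeR called 0 in P15 against P18 of the Tnc line (2 at an unadjusted p below 0.05, both lower, against 15.2% of all genes), with a median fitted log2 fold change of -0.65 against -0.61 over all genes. From counts pooled over mice, with counts under 3 set to a floor of 3 and genes at or under it in both populations left out, the medians were -0.44 and -0.06. Of 26 tested genes of other GPI-anchored surface proteins 2 were lower in P15, against 0.53% of all genes tested. These were Folr1, which encodes a folate receptor, at 0 in 3 of 3 P15 mice and 145 CPM on average in P18 (edgeR adjusted p = 0.0115), and Efna1, which encodes an ephrin, at 0 in 3 of 3 and 112 CPM (adjusted p = 0.0131). The median of that list was -1.66, or -1.26 with the floor of 3 counts. No member of either list was called by edgeR in P05, P10 or Cdh2 P15 against P18, where 3, 0 and 0 genes of the anchor pathway and 11, 6 and 5 of the anchored proteins had an unadjusted p below 0.05, as had 13.3%, 8.23% and 3.6% of all genes. In P15 it was 10 of the 26 anchored proteins, 7 lower and 3 higher, against 15.2% of all genes.

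Lists of cell identity genes differed in their calls. Of 13 luminal progenitor genes, the mammary class in which Plet1 is known, 3 were lower in P15 against P18 of the Tnc line and 0 higher, where 0.53% of all genes were called lower; 9 of the 13 had an unadjusted p below 0.05 and were lower, as were 10.2% of all genes. None of the 13 was called by edgeR in Tnc P05, Tnc P10 or Cdh2 P15 against P18, where 4, 0 and 7 had an unadjusted p below 0.05, all lower except 1 in Cdh2 P15, against 13.3%, 8.23% and 3.6% of all genes. Lcn2, which encodes lipocalin 2, averaged 46.0 CPM in P15 and 6538 CPM in P18 (edgeR adjusted p = 0.0128), Wfdc18 0.0882 and 7290 CPM (adjusted p = 0.000267) and Ehf 0.207 and 158 CPM (adjusted p = 0.000248), each with 3 of 3 P15 mice below every P18 mouse. The median log2 fold change of the list was -6.89 as fitted and -7.29 with the floor. Of 8 tested trophoblast regulators and 8 hormone-sensing luminal genes edgeR called 0 (3 and 2 at an unadjusted p below 0.05, against 15.2% of all genes), with medians of -2.24 and -2.75 as fitted and of -2.47 (6 genes) and -0.84 (8 genes) with the floor.

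Marker lists of cell types were counted in the same contrasts. P18 was sorted for high EpCAM and P15 and P05 for none. The direction of the epithelial list, which includes Epcam, was therefore not independent of the sort. In P15 against P18, where 0.53% of all genes were called lower and 0.198% higher, 6 of 8 epithelial markers were lower, and 3 of 10 leukocyte markers, 2 of 8 fibroblast markers and 1 of 6 basal markers (Acta2) were higher. The basal list summed to 4.37, 16.5 and 1579 CPM in the 3 P15 mice, so its level rests on a single mouse, and 2 members were lower at an unadjusted p below 0.05. In P05, where 0.192% of all genes were called lower and 0.352% higher, 3 of 8 epithelial markers (Krt8, Cldn4 and Cldn7) were lower, and 4 of 10 leukocyte, 5 of 8 fibroblast and 1 of 6 basal markers were higher. Of 5 endothelial markers edgeR called 0 in either (0 and 2 at an unadjusted p below 0.05, against 15.2% and 13.3% of all genes). At an unadjusted p below 0.05, 8 of 8 epithelial markers were lower in P15. Of the leukocyte and fibroblast markers 10 of 10 and 7 of 8 were higher. In P05 it was 8 of 8, 10 of 10 and 8 of 8. None of these markers was called in Tnc P10 or Cdh2 P15. At that p, 10 leukocyte and 3 fibroblast markers were higher in Tnc P10, against 8.23% of all genes. In Cdh2 P15, 7 epithelial markers were lower and 1 fibroblast marker higher, against 3.6% of all genes. The part of other cells in the Plet1 levels was not tested.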

How the data were processed

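The deposited table held raw counts of reads per gene, unnormalized, which the authors made with STAR, SAMtools and featureCounts of Subread on mm10, per the submitters' processing notes; their versions and strand setting were not stated there. All 55450 gene identifiers were matched to GENCODE M21. Only libraries marked as passed were used (335 of 487 wells with cells; 152 failed, and 17 wells were empty). Libraries differed and were taken as separate pools, and passed pools of the same animal and population were summed, since pools of a mouse are not replicates of a condition; the mouse was the replicate. CPM per animal used TMM factors (0.570 to 2.53) from edgeR, and CPM per pool the library's own total.

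Fold changes came from edgeR 4.0.16 (R 4.3.3), with genes filtered by expression in the groups, a common fit of 43 sums with the animal as a block (the same mice gave the populations), robust quasi-likelihood F tests and Benjamini-Hochberg adjustment over 33768 genes at 0.05; P18 of the lines was compared in a fit of 10 sums. DESeq2 1.42.0 was an alternative. Shares were tested with exact permutation tests over mice (SciPy 1.17.1).

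The genes, lists and tests were chosen with earlier results of these data known. Named were Plet1 and Plet1os, protein-coding neighbours within 250 kb, the 10 genes most like Plet1 over the sums and the 5 over P18 pools (among genes at 1 CPM in 80% of them), and list members that were called.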

Additional observations from a re-analysis of the deposited data

Results flagged for a closer look

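In Tnc P16 the value of TENA2462 stood apart from the other 3 mice for both genes: 3734 CPM for Plet1, where the next was 1365 CPM, and 1285 CPM for Plet1os. Chance flags about 1 in 20 groups in this way, and 21 sets of values were examined. P16 of TENA2462 rests on 12 pools, of 193 to 7791 CPM.

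Counts also appeared outside the passed libraries. Of 17 wells without cells, 1 held Plet1, at 240 of its 256675 counts (935 CPM), above every passed P05 pool; the shallowest passed library had 313655 counts, and the deepest of the other wells 44339, with no Plet1. Among pools that failed quality control, Plet1 reached 10 CPM in 23 of 37 pools of Tnc P17 and in 9 of 15 pools of Cdh2 P18.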

How the results depend on the processing

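Of the Plet1 and Plet1os fold changes and the Plet1os shares tested, none passed 0.05 under any alternative run. The alternatives therefore bear on size and sign. Calls of list genes against P18 were made in the main edgeR fit only and had no alternative run. The Plet1 fold change from P22 to P09 kept its sign throughout, as did that from P09 to P16, and leaving out each animal gave -0.30 to -0.13 and -1.60 to -0.80 on the log2 scale. From P16 to P10 the sizes moved most: Plet1 and Plet1os had -0.06 and -0.09 as reported, -0.79 and -0.76 with only the 2 populations in the fit, -0.67 and -0.70 with all libraries and -0.24 and -0.26 with libraries weighted equally. Leaving out each animal gave -0.48 to 0.0713 and -0.50 to 0.0394, positive without TENA2517 (0.0713 and 0.0394) and, for Plet1, without TENA2483 (0.0430). For P18 of the lines it gave -0.87 to -0.02 for Plet1 and -0.85 to 0.00372 for Plet1os, positive for Plet1os without Cdh1624. With lane 2 alone the Plet1 difference turned to 0.0251.

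The Plet1os share turned sign in 3 comparisons: Cdh2 against Tnc P18 with all libraries (0.0647 points) and without TENA2524 (0.0528; leaving out each animal, -0.34 to 0.0528), P22 against P18 without TENA2517 (0.203; -0.28 to 0.203), and P10 against P18 with at least 1000 counts or without TENA2517 (-0.40 in both; -0.40 to 2.37 when leaving out each animal). The last was 3.49 points as a mean of library shares, against 1.35 as reported.

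edgeR called 0 genes in the 3 steps and between the P18 groups, and DESeq2 956, 1549, 2084 and 3. Leaving out each animal gave 0 to 2 genes from P09 to P16 and 0 to 1 from P16 to P10, and no filter on low counts gave 1 from P16 to P10. The mice pair the populations, and the animal was the replicate block of the fit; with no replicate block edgeR called 0, 2 and 2 genes in the steps, and Plet1 had -0.19, -1.03 and -0.02. For these counts and signs the cause was not tested. P18 and P22 means were lower with RLE factors (4964 and 3639 CPM for Plet1), and the level of Cdh2 P05, with 1 mouse, ranged from 0 to 2.98 CPM. The SE for Plet1 in the steps was 0.82 to 0.93, and 0.147, 0.345 and 1.24 with only the 2 populations of a step in the fit, so the precision depends on the fit; a p above the threshold does not show equal levels.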
